A study of Homo sapiens with 6 samples.

Results

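The 10 genes described here encode plasma membrane amino acid transporters and were chosen by name: SLC7A1, SLC7A2, SLC7A3, SLC7A5, SLC7A6, SLC7A11, SLC3A2, SLC1A4, SLC1A5 and SLC38A2. They are 10 of the 60669 genes counted in each library, and 10 of 10 passed the filter on low counts that left 17575 genes for testing. They were named with earlier results of these data known, and SLC7A3 was singled out for its low level after MLL2 knockout. The counts of members called in each comparison are therefore descriptions, and no test is given for SLC7A3 in the contrasts that use the knockout.

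RNA was sequenced from 6 libraries of 293T, a human embryonic kidney cell line that carries SV40 large T antigen. The MLL2 KO group was 2 libraries of cells with an MLL2 knockout made by CRISPR/Cas9, the PRMT1 KD group was 2 libraries of cells in which a short hairpin RNA targeted PRMT1, and the Control group was 2 libraries of wild-type cells. The labels give no drug or other treatment for any group. They call the libraries of a group biological replicates without saying whether cultures were separate or whether the knockout is 1 clone. The p-values therefore measure the spread between these libraries, in an estimate shared by the 3 groups. The alignment names of the Control and MLL2 KO libraries include "shNT", which the labels do not explain, so whether those cells also carried a hairpin is not known. MLL2 has been used as a name for both KMT2B and KMT2D, histone H3 lysine 4 methyltransferases, and PRMT1 is a protein arginine methyltransferase.

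Cells cannot make essential amino acids, and import through members of the solute carrier families sets how much arginine, leucine, cystine or glutamine reaches the cytosol. Some carriers work alone, such as the cationic transporters that bring in arginine and lysine. Others are light chains that need the glycoprotein heavy chain SLC3A2 to reach the membrane and that swap one amino acid for another. Several of these genes are known targets of ATF4, the transcription factor of the amino acid response, which binds C/EBP-ATF response elements in DNA.

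RefSeq promoter windows, which run from 250 bases before to 50 bases after an annotated start, were available for 7 of the 10 genes, in 12 windows in all. They were searched on both strands for TGATGNAA, the core of the C/EBP-ATF response element. A match was found in 4 of the 12 windows, 1 each for SLC7A1, SLC3A2, SLC1A4 and SLC1A5, while 3.62% of all 35116 human windows held one. The windows are shown because they hold the letters in question, and a match is a description of the sequence, not of binding. They are given 5′ to 3′ on the gene's strand from RefSeq's GRCh38.p14, with the match in capitals.
SLC7A1 (chr13:29595639-29595938, minus strand): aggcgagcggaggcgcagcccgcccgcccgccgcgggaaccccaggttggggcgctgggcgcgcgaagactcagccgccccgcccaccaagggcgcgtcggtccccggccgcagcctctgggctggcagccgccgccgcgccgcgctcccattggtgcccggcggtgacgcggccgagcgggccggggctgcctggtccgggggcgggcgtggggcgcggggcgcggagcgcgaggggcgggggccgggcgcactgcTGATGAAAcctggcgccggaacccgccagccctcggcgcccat
SLC3A2 (chr11:62881449-62881748, plus strand): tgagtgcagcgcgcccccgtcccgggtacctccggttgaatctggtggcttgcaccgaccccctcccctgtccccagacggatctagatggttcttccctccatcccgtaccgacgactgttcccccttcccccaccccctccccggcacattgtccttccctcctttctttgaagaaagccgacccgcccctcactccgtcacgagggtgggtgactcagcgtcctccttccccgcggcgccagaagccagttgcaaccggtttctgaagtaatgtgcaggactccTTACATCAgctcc
SLC1A4 (chr2:64989149-64989448, plus strand): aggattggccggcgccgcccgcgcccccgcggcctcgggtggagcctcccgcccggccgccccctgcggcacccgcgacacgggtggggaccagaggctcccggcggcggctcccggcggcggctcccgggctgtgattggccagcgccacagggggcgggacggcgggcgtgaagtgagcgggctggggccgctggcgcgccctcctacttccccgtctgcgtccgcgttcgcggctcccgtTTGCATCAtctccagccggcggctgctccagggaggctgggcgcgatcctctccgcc
SLC1A5 (chr19:46784765-46785064, minus strand): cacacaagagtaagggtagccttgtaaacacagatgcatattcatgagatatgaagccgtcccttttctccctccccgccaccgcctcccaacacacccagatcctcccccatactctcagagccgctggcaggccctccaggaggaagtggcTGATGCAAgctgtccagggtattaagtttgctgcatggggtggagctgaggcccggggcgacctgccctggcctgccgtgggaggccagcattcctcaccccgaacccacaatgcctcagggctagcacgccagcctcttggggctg
The match of SLC7A1 read TGATGAAA and lay 7 to 14 bases after the start. That of SLC1A5 read TGATGCAA and lay 97 to 90 bases before the most downstream of its 3 annotated starts. In SLC3A2 and SLC1A4 the match was on the opposite strand: TGATGTAA in SLC3A2, 37 to 44 bases after 1 of its 3 starts, and TGATGCAA in SLC1A4, ending on the second of its 2 starts. The cyclic AMP response element TGACGTCA, held by 1.85% of all windows, was found in 0 of the 12. The core of the antioxidant response element, TGACNNNGC, was found in 5 of the 12, against 13.3% of all windows. Of the windows shown, that of SLC3A2 held it as TGACTCAGC 37 to 29 bases before the start and that of SLC7A1 as TGACGCGGC 85 to 77 bases before the start, both apart from the capitals. SLC7A2, SLC7A3 and SLC7A11 are named only.

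Libraries held between 20061471 and 22351532 counts, and TMM scaling factors ran between 0.969 and 1.08. Levels between libraries are given in CPM, the count as a rate per library size after TMM scaling. PRMT1 itself had 38.2 and 34.9 CPM in PRMT1 KD cells, against 306 and 319 CPM in Control cells. PRMT1 had 406 and 425 CPM in MLL2 KO cells. KMT2B had 7.12 and 7.36 CPM in MLL2 KO cells and 13.4 and 26.7 CPM in PRMT1 KD cells, against 6.74 and 7.53 CPM in Control cells. KMT2D had 20.8 and 24.2 CPM in MLL2 KO cells and 37.8 and 95.5 CPM in PRMT1 KD cells, against 22.5 and 17.03 CPM in Control cells. Neither was called in MLL2 KO, so RNA did not check the knockout label. The PRMT1 KD replicates stood further apart than the others, with a chi-square per degree of freedom between replicates of 12.8, against 4.45 in MLL2 KO and 5.58 in Control. Of 8 markers of the 293 lineage, VIM (490 to 751 CPM) and LIN28B (112 to 185 CPM) were abundant, whereas PAX2 stood at 0.541 CPM or less. The summed CPM of these 8 was 989 and 988 in MLL2 KO and 1265 and 1195 in PRMT1 KD, against 1299 and 1334 in Control. At an edgeR adjusted p under 0.05, 3 of them were lower and 0 higher in MLL2 KO, where 22.4% of all tested genes were called. In PRMT1 KD 3 were lower (KRT18, NEFL and NEFM) and 3 higher (VIM, SOX4 and EYA1), where 47.4% of all tested genes were called. VIM had 507 and 512 CPM in MLL2 KO and 751 and 694 CPM in PRMT1 KD, against 490 and 498 CPM in Control. SOX4 had 93.8 and 93.6 CPM in MLL2 KO and 166 and 172.8 CPM in PRMT1 KD, against 89.6 and 113.5 CPM in Control. EYA1 had 9.15 and 12.5 CPM in MLL2 KO and 20.9 and 24.2 CPM in PRMT1 KD, against 16.7 and 12.75 CPM in Control. NEFL had 155.7 and 153 CPM in MLL2 KO and 56.6 and 53.3 CPM in PRMT1 KD, against 347 and 352 CPM in Control. NEFM had 20.7 and 22.5 CPM in MLL2 KO and 21.6 and 36.3 CPM in PRMT1 KD, against 92.9 and 82.2 CPM in Control. Among markers of other cell types, CD3E, INS and MYH7 were at 0 in every library, and COL3A1 had 7.35 and 6.23 CPM in MLL2 KO and 6.48 and 5.18 CPM in PRMT1 KD, against 12.3 and 12.9 CPM in Control. The part of these marker differences in the results below was not tested. In bulk RNA, fewer cells that express a gene and less of its RNA per cell cannot be told apart.

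Against Control and with SLC7A3 left out, 6 of the other 9 transporters were lower in MLL2 KO cells, 1 was higher and 2 were not called at an adjusted p under 0.05, where 22.4% of all 17575 tested genes were called, 12.1% lower and 10.3% higher. The median log2 change was −0.52 over the 9, beside −0.01 for all tested genes. In 9 of the 9 the MLL2 KO libraries lay wholly below or above the Control libraries, as they did for 62.6% of all tested genes. In PRMT1 KD cells 6 of the 10, SLC7A3 included, were lower, 1 was higher and 3 were not called, where 47.4% of all tested genes were called, 25.3% lower and 22.2% higher. Their median log2 change was −0.29, beside −0.04 for all tested genes, and for 7 of the 10 the libraries did not overlap those of Control, as for 73.5% of all tested genes. Both comparisons use the same Control libraries.

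**Figure D1:**
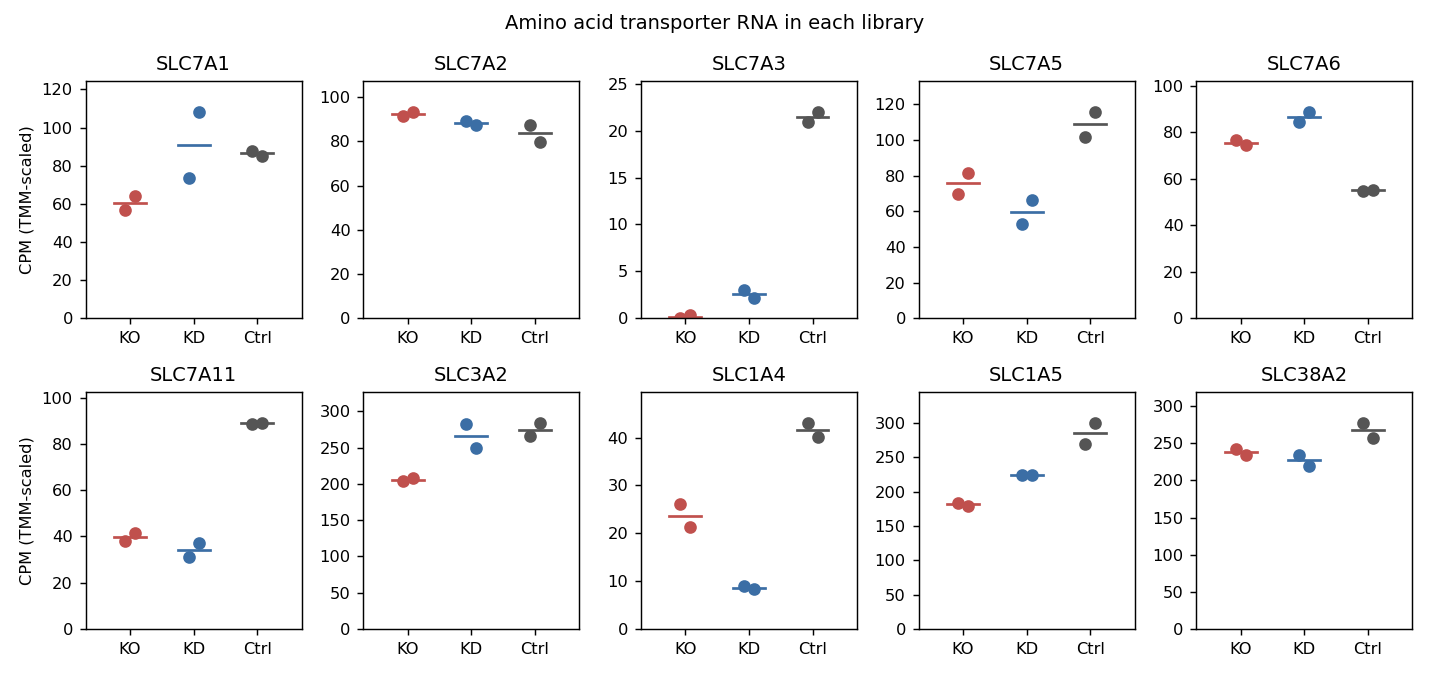
Level of each transporter in CPM on TMM-scaled library sizes (vertical axis, from 0, a scale of its own in each panel) in the 2 MLL2 KO (KO), 2 PRMT1 KD (KD) and 2 Control (Ctrl) libraries, with points for libraries and lines for group means. SLC7A3 lies near 0 in MLL2 KO and at 2.195 and 3.05 CPM in PRMT1 KD, against 21.0 and 22.0 CPM in Control, while SLC7A6 lies above Control in both depletions.

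Among the cationic transporters, SLC7A3 was nearly without reads in MLL2 KO cells, while its relatives SLC7A1 and SLC7A2 kept CPM levels within 1.44-fold of Control. SLC7A3 (chromosome X, 70925579 to 70931125, minus strand, hg38) encodes a sodium-independent carrier of arginine, lysine and ornithine best known from the brain. It had 1 and 6 counts in MLL2 KO libraries, 63 and 50 in PRMT1 KD libraries, and 420 and 447 in Control libraries. The 3 groups did not overlap, and the MLL2 KO libraries were the lowest. In CPM these were 0.0462 and 0.294 in MLL2 KO, 3.05 and 2.195 in PRMT1 KD, and 21.0 and 22.0 in Control.

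The summed SLC7A3 reads of MLL2 KO cells, scaled for library size, were 0.776% of those of Control (exact 95% interval 0.311% to 1.6%). Those of PRMT1 KD cells were 12.1% of Control (9.86% to 14.7%). These intervals cover counting error only. The fitted log2 change in MLL2 KO was −6.96 ± 0.38 (SE, n = 2 libraries a group), given without a test, and it was −6.16 without MLL2 KO replicate 1 and −8.68 without replicate 2, since it rests on 7 reads. In PRMT1 KD cells SLC7A3 fell 8.21-fold, a log2 change of −3.04 ± 0.26 (edgeR adjusted p = 6.11e-09).

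SLC7A1 (chromosome 13, 29509414 to 29595688, minus strand) encodes the widely expressed arginine and lysine carrier of most cells. It had 56.5 and 64.0 CPM in MLL2 KO, 73.7 and 108 CPM in PRMT1 KD, and 87.8 and 85.2 CPM in Control. Both MLL2 KO libraries were below both Control libraries, and the PRMT1 KD libraries stood on either side of Control. SLC7A1 fell in MLL2 KO cells, by 0.52 ± 0.13 on the log2 scale (edgeR adjusted p = 0.00522), though without MLL2 KO replicate 1 the change was −0.43 (edgeR adjusted p = 0.0504). Its change in PRMT1 KD cells was not called, at 0.07 ± 0.13 (edgeR adjusted p = 0.662). That value turned on which PRMT1 KD library was kept: it was −0.23 without replicate 2, and 0.32 without replicate 1 (edgeR adjusted p = 0.00455).

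SLC7A2 (chromosome 8, 17497088 to 17570573, plus strand), whose splice forms differ in their affinity for arginine, was the steadiest of the 10 over these libraries. It had 91.6 and 93.4 CPM in MLL2 KO, 89.1 and 87.4 CPM in PRMT1 KD, and 87.5 and 79.9 CPM in Control. Its log2 change was 0.14 ± 0.09 in MLL2 KO (edgeR adjusted p = 0.268) and 0.08 ± 0.09 in PRMT1 KD (edgeR adjusted p = 0.501), neither called.

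The make-up of cationic transporter RNA therefore differed between groups. On the per-length TPM scale, which divides counts by exon length and then by their sum over the library, SLC7A3 held 0.108% and 0.641% of the summed SLC7A1, SLC7A2 and SLC7A3 level in MLL2 KO libraries, 6.05% and 3.71% in PRMT1 KD libraries, and 29.1% and 31.4% in Control libraries. SLC7A2 held 61.1% and 58.3% in MLL2 KO and 50.8% and 42.4% in PRMT1 KD, against 34.9% and 32.7% in Control. The share of SLC7A1 was 38.8% and 41.1% in MLL2 KO, 43.2% and 53.9% in PRMT1 KD, and 36.0% and 35.9% in Control. In Control the 3 genes thus had near-equal shares, whereas SLC7A1 and SLC7A2 together made up nearly the whole in MLL2 KO.

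**Figure D2:**
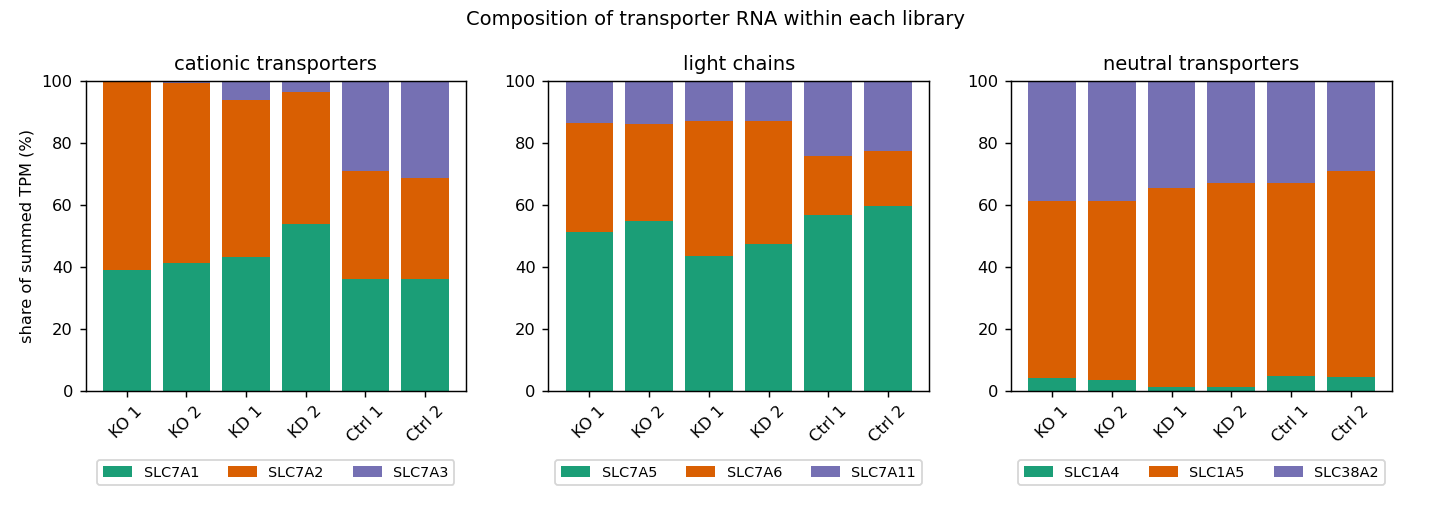
Share of summed TPM (%, vertical axis) held by each gene in each library, with stacked bars for the 2 MLL2 KO (KO), 2 PRMT1 KD (KD) and 2 Control (Ctrl) libraries in 3 panels: cationic carriers, light chains, and carriers of neutral amino acids. SLC7A3 makes up 29.1% and 31.4% of the cationic panel in Control and at most 0.641% in MLL2 KO, and SLC7A6 holds a larger share of the light chains in both depletions than in Control.

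The carriers that pair with SLC3A2 did not move together. SLC7A11 and SLC7A5 were lower in both depletions, SLC7A6 was higher in both, and SLC3A2 itself was lower in MLL2 KO cells alone among the calls. SLC7A11 (chromosome 4, 138164097 to 138242349, minus strand) is the light chain of system xc-, which takes up cystine in exchange for glutamate and so feeds glutathione synthesis. It had 37.9 and 41.5 CPM in MLL2 KO, 31.2 and 37.0 CPM in PRMT1 KD, and 88.6 and 89.2 CPM in Control. The 4 depleted libraries lay far below the Control libraries. SLC7A11 fell 2.24-fold in MLL2 KO cells, a log2 change of −1.16 ± 0.11 (edgeR adjusted p = 1.52e-07). It fell 2.60-fold in PRMT1 KD cells, a log2 change of −1.38 ± 0.11 (edgeR adjusted p = 1.78e-09). SLC7A11-AS1, its antisense gene, had at most 3 counts in any library.

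SLC7A5 (chromosome 16, 87830023 to 87869507, minus strand) imports leucine and other large neutral amino acids and is a main supplier of the leucine that mTORC1 senses. It had 69.8 and 81.4 CPM in MLL2 KO, 52.7 and 66.5 CPM in PRMT1 KD, and 101.8 and 115.7 CPM in Control. Both depletions lay below Control, and the 2 depletions did not overlap. The log2 change was −0.53 ± 0.11 in MLL2 KO cells (edgeR adjusted p = 0.00164) and −0.87 ± 0.11 in PRMT1 KD cells (edgeR adjusted p = 1.87e-06). Without Control replicate 2 the MLL2 KO change was −0.43 and was not called (edgeR adjusted p = 0.0535). SLC7A5 has a near-identical pseudogene, SLC7A5P1, with 119 and 136 counts in MLL2 KO, 123 and 155 in PRMT1 KD, and 83 and 122 in Control, so reads shared between the copies make its level uncertain.

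SLC7A6 (chromosome 16, 68264516 to 68301823, plus strand) exports cationic amino acids in exchange for neutral ones and was the member that rose in each depletion. It had 76.6 and 74.4 CPM in MLL2 KO, 84.3 and 88.8 CPM in PRMT1 KD, and 54.7 and 55.3 CPM in Control. Replicates were close and the 3 groups did not overlap. SLC7A6 rose by 0.46 ± 0.09 on the log2 scale in MLL2 KO cells (edgeR adjusted p = 0.00104) and by 0.65 ± 0.09 in PRMT1 KD cells (edgeR adjusted p = 4.79e-06). It overlaps SLC7A6OS on the opposite strand, whose log2 change was 0.10 in MLL2 KO and 0.66 in PRMT1 KD, and the reads were counted by strand.

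SLC3A2 (chromosome 11, 62856102 to 62888875, plus strand), the heavy chain also known as CD98, had 204 and 208 CPM in MLL2 KO, 282 and 249 CPM in PRMT1 KD, and 265 and 284 CPM in Control. The MLL2 KO libraries lay below all others, and the PRMT1 KD and Control libraries overlapped. SLC3A2 fell by 0.42 ± 0.08 on the log2 scale in MLL2 KO cells (edgeR adjusted p = 0.00121). Its change in PRMT1 KD cells was −0.05 ± 0.08 (edgeR adjusted p = 0.659), and it turned to 0.01 when a trend with exon length was removed.

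On the TPM scale, SLC7A6 held 35.2% and 31.4% of the summed SLC7A5, SLC7A6 and SLC7A11 level in MLL2 KO libraries and 43.7% and 39.7% in PRMT1 KD libraries, against 19.1% and 17.8% in Control libraries. SLC7A11 held 13.7% and 13.8% in MLL2 KO and 12.7% and 13.0% in PRMT1 KD, against 24.3% and 22.7% in Control. SLC7A5 remained the most abundant light chain in MLL2 KO and in Control, at 51.1% and 54.8% against 56.6% and 59.5%. In PRMT1 KD its share, 43.5% and 47.3%, came near that of SLC7A6. The ratio of SLC3A2 to the summed TPM of its measured light chains, SLC7A7 and SLC7A8 included, was 1.35 and 1.26 in MLL2 KO, 2.10 and 1.60 in PRMT1 KD, and 1.33 in both Control libraries. The PRMT1 KD libraries thus had more heavy chain RNA per light chain RNA than either other group, while the MLL2 KO libraries stood on either side of Control.

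Of the carriers of neutral amino acids, SLC1A4 and SLC1A5 were lower in both depletions, by different amounts, while the call of SLC38A2 depended on the setting. SLC1A4 (chromosome 2, 64988477 to 65023865, plus strand) exchanges alanine, serine, cysteine and threonine. It had 26.2 and 21.2 CPM in MLL2 KO, 8.95 and 8.30 CPM in PRMT1 KD, and 43.1 and 40.1 CPM in Control. The groups were well apart, with PRMT1 KD the lowest. SLC1A4 fell by 0.81 ± 0.13 on the log2 scale in MLL2 KO cells (edgeR adjusted p = 0.000183). It fell 4.83-fold in PRMT1 KD cells, a log2 change of −2.27 ± 0.15 (edgeR adjusted p = 1.42e-10), the member furthest below Control there after SLC7A3.

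SLC1A5 (chromosome 19, 46774883 to 46788594, minus strand) is the main sodium-coupled glutamine importer of many dividing cells. It had 183 and 179.6 CPM in MLL2 KO, 224 and 224.5 CPM in PRMT1 KD, and 269 and 300.3 CPM in Control. The groups did not overlap, with MLL2 KO the lowest. SLC1A5 fell by 0.65 ± 0.08 on the log2 scale in MLL2 KO cells (edgeR adjusted p = 1.07e-05). Its change in PRMT1 KD cells was −0.35 ± 0.08 (edgeR adjusted p = 0.00146). That call was lost when the trend with exon length was removed (log2 change −0.16, edgeR adjusted p = 0.0906) and without Control replicate 2 (−0.27, edgeR adjusted p = 0.064).

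SLC38A2 (chromosome 12, 46358188 to 46372773, minus strand) takes up small neutral amino acids with sodium and is known to be induced when amino acids run short. It had 242 and 235 CPM in MLL2 KO, 235 and 219.7 CPM in PRMT1 KD, and 278 and 257 CPM in Control. All 4 depleted libraries lay below both Control libraries by small amounts. The log2 change was −0.17 ± 0.08 in MLL2 KO (edgeR adjusted p = 0.156) and −0.23 ± 0.08 in PRMT1 KD (edgeR adjusted p = 0.022). SLC38A2 became a call in MLL2 KO when MLL2 KO and Control were fitted alone (edgeR adjusted p = 0.0251) and without PRMT1 KD replicate 1 (0.0225) or 2 (0.0195). The PRMT1 KD call was lost when PRMT1 KD and Control were fitted alone (edgeR adjusted p = 0.0838), with no filter on low counts (0.0584), and without Control replicate 1 (0.228), MLL2 KO replicate 1 (0.0551) or MLL2 KO replicate 2 (0.0594). On the TPM scale SLC38A2 held 38.8% of the summed SLC1A4, SLC1A5 and SLC38A2 level in both MLL2 KO libraries, 34.5% and 33.0% in PRMT1 KD, and 32.9% and 29.2% in Control.

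**Figure D3:**
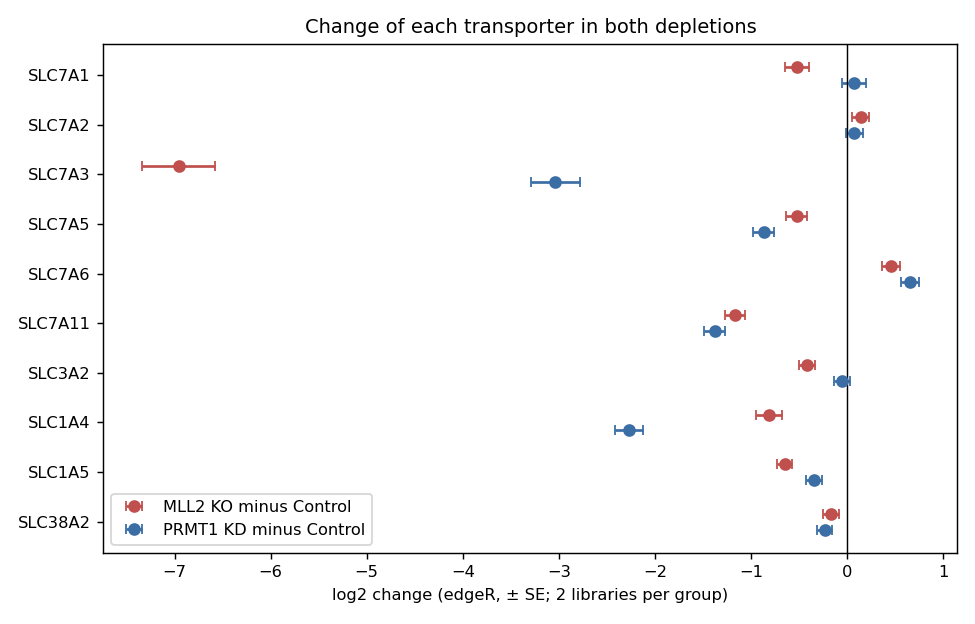
Log2 change of each transporter against Control (horizontal axis, edgeR fit, bars ± SE, 2 libraries per group), with MLL2 KO drawn above PRMT1 KD for each gene. SLC7A3 stands at −6.96 in MLL2 KO and −3.04 in PRMT1 KD, SLC1A4 is lower in PRMT1 KD than in MLL2 KO, and SLC7A6 is to the right of 0 in both.

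Set directly against MLL2 KO and with SLC7A3 left out, the PRMT1 KD libraries had 3 of 9 transporters higher, 2 lower and 4 not called, where 40.7% of all tested genes were called, 19.4% higher and 21.4% lower. The median log2 difference of the 9 was −0.07, beside 0.01 for all tested genes. In 8 of the 9 the libraries of these 2 groups did not overlap, as in 70% of all tested genes. SLC7A3 had a log2 difference of 3.92 ± 0.46, given without a test, which ran between 3.12 and 5.64 when 1 library was left out. SLC7A1 was higher in PRMT1 KD by 0.60 ± 0.13 (edgeR adjusted p = 0.00075), SLC3A2 by 0.37 ± 0.08 (edgeR adjusted p = 0.00145) and SLC1A5 by 0.31 ± 0.08 (edgeR adjusted p = 0.00499). The SLC1A5 difference was not called without MLL2 KO replicate 1 (edgeR adjusted p = 0.065) or replicate 2 (edgeR adjusted p = 0.0877). These 3 genes lay closer to Control in PRMT1 KD than in MLL2 KO.

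SLC1A4 and SLC7A5 went the other way. SLC1A4 was lower in PRMT1 KD than in MLL2 KO by a log2 difference of −1.46 ± 0.15 (edgeR adjusted p = 1.11e-07). For SLC7A5 the difference was −0.34 ± 0.11 (edgeR adjusted p = 0.0184), a call lost without MLL2 KO replicate 2 (−0.23, edgeR adjusted p = 0.219) and without PRMT1 KD replicate 1 (−0.19, edgeR adjusted p = 0.127). For SLC7A11 the difference was −0.22 ± 0.11 (edgeR adjusted p = 0.121), for SLC7A6 0.20 ± 0.09 (edgeR adjusted p = 0.0838), for SLC7A2 −0.07 ± 0.09 (edgeR adjusted p = 0.582) and for SLC38A2 −0.07 ± 0.08 (edgeR adjusted p = 0.539). None of these 4 passed, although SLC7A11 did once the trend with exon length was removed (−0.31, edgeR adjusted p = 0.0167) or PRMT1 KD replicate 2 left out (−0.35, edgeR adjusted p = 0.015), and SLC7A6 with a filter at 1 CPM (edgeR adjusted p = 0.0497).

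Levels of the transporters were compared with each other per length, in TPM within a group. In Control cells SLC1A5 was highest at 190.1 ± 7.86 TPM (SD, n = 2), followed by SLC3A2 at 118.2 ± 1.51 TPM, SLC38A2 at 91.6 ± 8.38 TPM and SLC7A5 at 50.8 ± 2.78 TPM. Below these, SLC7A1 (25.1 ± 1.44 TPM) and SLC7A2 (23.6 ± 2.36 TPM) overlapped. SLC7A3 (21.1 ± 0.0406 TPM) and SLC7A11 (20.5 ± 0.653 TPM) differed by less than the SD of SLC7A11, though by more than that of SLC7A3. SLC7A6 (16.2 ± 0.475 TPM) and SLC1A4 (13.4 ± 1.17 TPM) came last. SLC7A3 in Control was thus of the same order as the cationic carriers SLC7A1 and SLC7A2.

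In MLL2 KO cells the 4 genes at the top kept that order, with means of 125 TPM for SLC1A5, 91.4 for SLC3A2, 84.1 for SLC38A2 and 36.5 for SLC7A5. SLC7A3 was last, at 0.174 TPM, below SLC1A4 at 7.83 TPM. In PRMT1 KD cells SLC1A5 (179.5 TPM), SLC3A2 (136.6 TPM) and SLC38A2 (93.1 TPM) again led. SLC7A5 (33.5 ± 6.76 TPM), SLC7A1 (31.7 ± 9.68 TPM), SLC7A6 (30.5 ± 2.28 TPM) and SLC7A2 (29.8 ± 0.742 TPM) could not be ordered beyond their spread. SLC1A4 (3.31 ± 0.0494 TPM) and SLC7A3 (3.07 ± 0.59 TPM) shared the lowest place.

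The position of SLC7A3 on the X chromosome was examined because of earlier results of these data, which are not shown here. In those, whole stretches of chromosomes were lower in MLL2 KO cells. Of 17 other tested genes that start within 1 Mb of SLC7A3, 3 were lower and 0 higher in MLL2 KO cells, with a median log2 change of 0.04. In PRMT1 KD cells 6 were lower and 6 higher, with a median of 0.14. Over all tested genes 12.1% were lower and 10.3% higher in MLL2 KO, and 25.3% lower and 22.2% higher in PRMT1 KD. Those lower in MLL2 KO, named after their values were seen, were NHSL2 at 985.2 kb (log2 change −2.74 ± 0.39), DLG3 at −480.7 kb (−0.64 ± 0.10) and IGBP1 at −792.1 kb (−0.48 ± 0.10), where a negative distance points to lower coordinates. The edgeR adjusted p was 4.44e-05 for NHSL2, 7.47e-05 for DLG3 and 0.00125 for IGBP1. The other tested genes between DLG3 and NHSL2 held none that was called in MLL2 KO. Of 53 other tested genes that start within 5 Mb, 9 were lower and 3 higher in MLL2 KO, with a median log2 change of −0.02. In PRMT1 KD 15 of them were lower and 17 higher, with a median of −0.07. A part of the position in the level of SLC7A3 was not tested. For the other 9 transporters, the median log2 change in MLL2 KO of the genes within 1 Mb lay between −0.09, around SLC1A4, and 0.22, around SLC7A11.

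**Figure D4:**
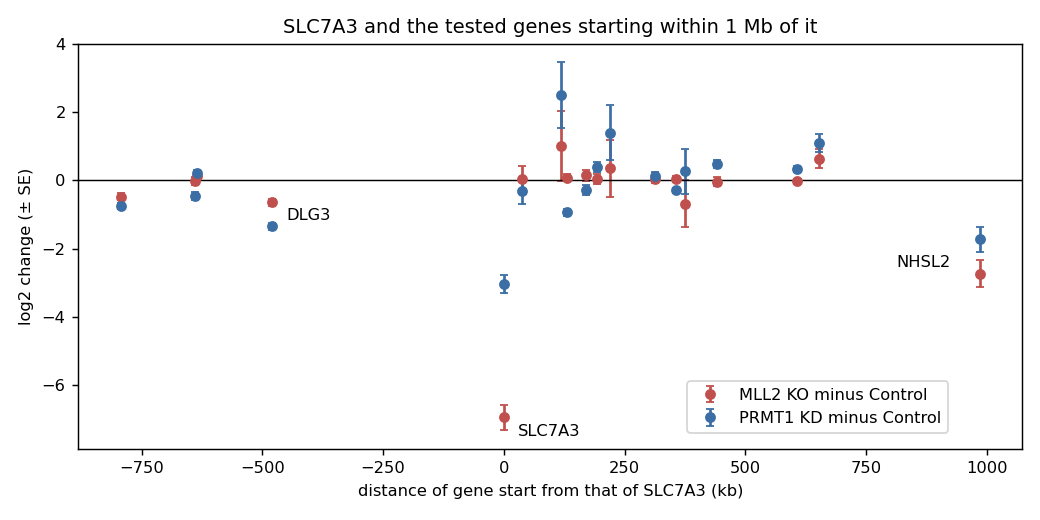
Log2 change against Control (vertical axis, ± SE) of SLC7A3 and the tested genes that start within 1 Mb of it, by distance between gene starts in kb (horizontal axis), for MLL2 KO and PRMT1 KD. SLC7A3 at 0 kb stands far below the genes beside it in both depletions, and NHSL2 at 985.2 kb is the next lowest in MLL2 KO.

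Log2 changes in PRMT1 KD cells followed exon length over all genes. The 500 tested genes nearest in length to SLC7A3 (2268 nt) had a median of −0.18, those nearest to SLC1A5 (3332 nt) −0.14, and those nearest to SLC7A11 (9645 nt) 0.14. For the other 7 transporters this median lay between −0.04 and 0.11, and in MLL2 KO cells it lay between 0.02 and 0.07 for the 10. With the length trend removed, the PRMT1 KD log2 change was −2.77 for SLC7A3, −2.27 for SLC1A4, −1.44 for SLC7A11, −0.78 for SLC7A5, 0.64 for SLC7A6 and −0.23 for SLC38A2, each still called, while that of SLC1A5 was −0.16 and was not.

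A wider list of 33 other surface amino acid transporters, written with earlier results of these data known, had 16 tested genes. In MLL2 KO cells 2 were lower and 3 higher, with a median log2 change of 0.06, and in PRMT1 KD cells 6 were lower and 3 higher, with a median of −0.36. These calls, 5 of 16 in MLL2 KO and 9 of 16 in PRMT1 KD, stand beside 22.4% and 47.4% of all tested genes. SLC43A1, a facilitated leucine carrier, had 24.2 and 27.8 CPM in MLL2 KO and 22.4 and 20.3 CPM in PRMT1 KD, against 60.1 and 59.1 CPM in Control. It fell in both depletions, with a log2 change of −1.20 ± 0.12 in MLL2 KO (edgeR adjusted p = 3.54e-07) and −1.48 ± 0.12 in PRMT1 KD (edgeR adjusted p = 2.62e-09). SLC6A9, a glycine carrier, changed by −1.45 ± 0.28 in MLL2 KO (edgeR adjusted p = 0.000841) and −2.77 ± 0.31 in PRMT1 KD (edgeR adjusted p = 2.97e-07).

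SLC1A3, a glutamate importer of the same family as SLC1A4 and SLC1A5, went against them. It had 98.8 and 102 CPM in MLL2 KO and 52.8 and 53.6 CPM in PRMT1 KD, against 43.6 and 44.5 CPM in Control. It rose by 1.19 ± 0.09 on the log2 scale in MLL2 KO cells (edgeR adjusted p = 1.68e-08), and by 0.27 ± 0.09 in PRMT1 KD cells (edgeR adjusted p = 0.021), a call lost without either Control library or MLL2 KO replicate 1. SLC6A15, a carrier of branched-chain amino acids and proline, was not called in MLL2 KO (0.13 ± 0.08, edgeR adjusted p = 0.306) and fell in PRMT1 KD (−0.64 ± 0.08, edgeR adjusted p = 2.2e-06). Of 17 lysosomal and mitochondrial amino acid carriers, 15 were tested. In MLL2 KO cells 1 was lower and 5 were higher, with a median of 0.18, where 12.1% of all tested genes were lower and 10.3% higher. In PRMT1 KD cells 5 were lower and 7 higher, with a median of 0.23, where 25.3% of all tested genes were lower and 22.2% higher. SLC38A7, a lysosomal glutamine carrier, rose by 1.88 ± 0.19 in PRMT1 KD (edgeR adjusted p = 8.56e-08), and CTNS, which exports cystine from lysosomes, by 1.73 ± 0.17 (edgeR adjusted p = 3.64e-08). In MLL2 KO the changes were 0.75 ± 0.20 for SLC38A7 (edgeR adjusted p = 0.00891), lost without Control replicate 1 or MLL2 KO replicate 2, and 0.49 ± 0.17 for CTNS (edgeR adjusted p = 0.0418), lost without replicate 2 of either group.

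The amino acid response list, 19 known targets and factors of the ATF4 pathway outside the 10, had 16 genes lower and 0 higher in MLL2 KO cells, with a median log2 change of −0.70. In PRMT1 KD cells 17 were lower and 0 higher, with a median of −1.03. Over all tested genes 12.1% were lower and 10.3% higher in MLL2 KO, and 25.3% lower and 22.2% higher in PRMT1 KD. The list was written with earlier results known, so its direction is no independent evidence. Both lists of calls rest on the same Control libraries. PHGDH, the first enzyme of serine synthesis, had 366 and 331 CPM in MLL2 KO and 153.9 and 148 CPM in PRMT1 KD, against 625 and 647 CPM in Control. Its log2 change was −0.87 ± 0.08 in MLL2 KO (edgeR adjusted p = 2.46e-07) and −2.07 ± 0.08 in PRMT1 KD (edgeR adjusted p = 2.27e-13). CHAC1, which degrades glutathione, changed by −2.49 ± 0.24 in MLL2 KO (edgeR adjusted p = 3.02e-07) and −3.38 ± 0.26 in PRMT1 KD (edgeR adjusted p = 1.35e-09). ATF4 RNA itself, named after its values were seen, had 1293 and 1230 CPM in MLL2 KO and 775 and 672 CPM in PRMT1 KD, against 1802 and 1847 CPM in Control. Its log2 change was −0.53 ± 0.09 in MLL2 KO (edgeR adjusted p = 0.00014) and −1.33 ± 0.09 in PRMT1 KD (edgeR adjusted p = 1.72e-10).

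Genes that use what the transporters carry were counted likewise, beside the same 22.4% of all tested genes called in MLL2 KO and 47.4% in PRMT1 KD. Of 14 tested genes of arginine synthesis and use, 3 were lower and 1 higher in MLL2 KO (median 0.04), and 7 were lower and 2 higher in PRMT1 KD (median −0.42). ASS1, which makes the precursor of arginine from citrulline, had 15.6 and 16.3 CPM in MLL2 KO and 25.6 and 20.5 CPM in PRMT1 KD, against 118.7 and 113 CPM in Control. Its log2 change was −2.86 ± 0.12 in MLL2 KO (edgeR adjusted p = 1.7e-12) and −2.33 ± 0.11 in PRMT1 KD (edgeR adjusted p = 2.66e-12).

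Of 13 tested genes of cystine and glutathione metabolism, which SLC7A11 feeds, 3 were lower and 4 higher in MLL2 KO (median 0.08), and 4 were lower and 2 higher in PRMT1 KD (median −0.12). CTH, which makes cysteine from cystathionine, had 21.3 and 18.4 CPM in MLL2 KO and 18.5 and 18.4 CPM in PRMT1 KD, against 46.8 and 46.5 CPM in Control. It fell in MLL2 KO (−1.23 ± 0.12, edgeR adjusted p = 5.9e-07) and in PRMT1 KD (−1.33 ± 0.12, edgeR adjusted p = 2.52e-08). GCLM, the modifier subunit of the first enzyme of glutathione synthesis, rose in PRMT1 KD by 1.47 ± 0.14 (edgeR adjusted p = 2.36e-08). In MLL2 KO it rose by 0.62 ± 0.14 (edgeR adjusted p = 0.0025), a call lost without Control replicate 2.

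Of 10 genes of glutamine use, 2 were lower and 2 higher in MLL2 KO (median 0.09), and 6 were lower and 3 higher in PRMT1 KD (median −0.30). GPT2, a mitochondrial alanine transaminase, changed by −0.83 ± 0.09 in MLL2 KO (edgeR adjusted p = 2.03e-06) and −1.46 ± 0.09 in PRMT1 KD (edgeR adjusted p = 1.37e-10). CAD, which spends glutamine on pyrimidine synthesis, rose by 0.54 ± 0.10 in MLL2 KO (edgeR adjusted p = 0.000781) and 1.01 ± 0.10 in PRMT1 KD (edgeR adjusted p = 1.01e-07). Of 32 tested genes of amino acid sensing by mTORC1, 3 were lower and 5 higher in MLL2 KO (median 0.04), and 7 were lower and 11 higher in PRMT1 KD (median 0.16), near those all-gene shares. Of 7 partners and regulators of transporters at the membrane, 3 were lower and 0 higher in MLL2 KO, and 3 were lower and 2 higher in PRMT1 KD, with a median of −0.21 in each.

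**Figure D5:**
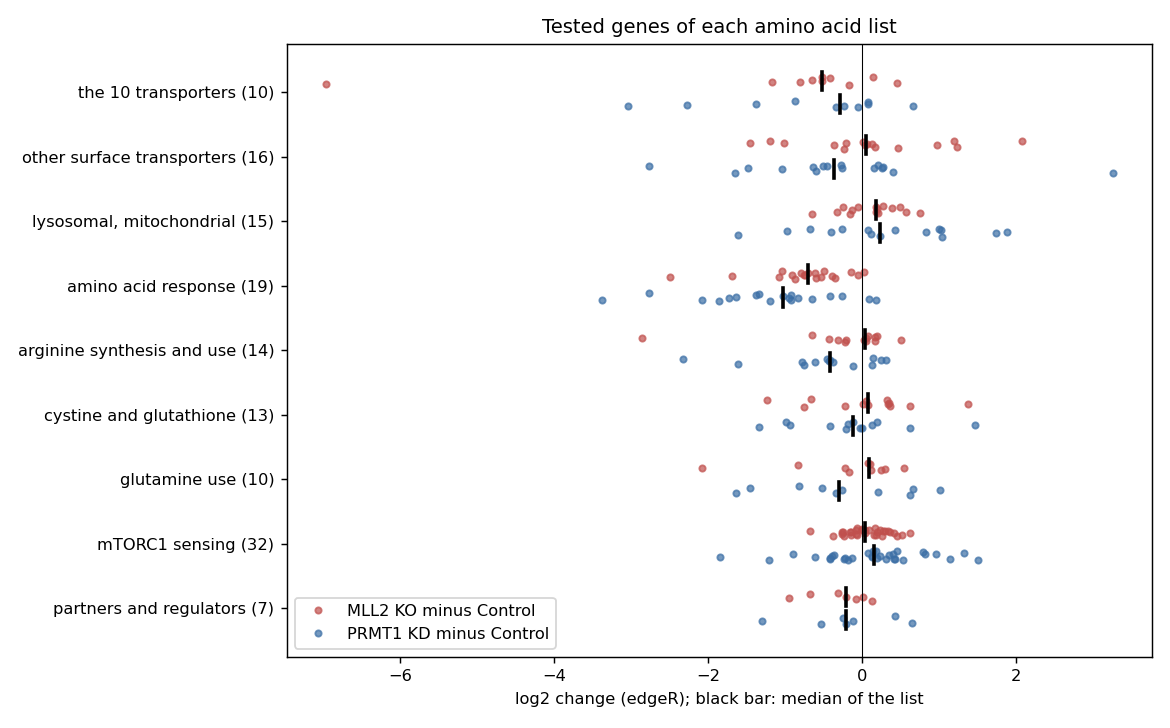
Log2 change against Control (horizontal axis, edgeR fit) of the tested genes of each list, with 1 point per gene, MLL2 KO drawn above PRMT1 KD, black bars for medians and the number of tested genes in brackets. The amino acid response list has medians of −0.70 in MLL2 KO and −1.03 in PRMT1 KD, and the 10 transporters have −0.52 in MLL2 KO and −0.29 in PRMT1 KD, while the lists of other carriers spread to both sides of 0.

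Protein-coding genes whose levels over the 6 libraries lay closest to the pattern of SLC7A3 were named by the root mean square difference of log2(CPM + 0.1), centred on the Control mean, among genes with at least 1 CPM in Control. They were BEX1 (1.07), KCNT2 (1.09), RAPGEF3 (1.28), PKP3 (1.33) and GATA5 (1.44). BEX1 had 0 CPM in both MLL2 KO libraries and 0.725 and 0.79 CPM in PRMT1 KD, against 3.29 and 3.45 CPM in Control. RAPGEF3 had 0.0462 and 0.834 CPM in MLL2 KO and 0.871 and 0.658 CPM in PRMT1 KD, against 7.49 and 7.48 CPM in Control. No other protein-coding gene came within 1 log2 unit of SLC7A3 on this measure, and each of the 5 had a lower Control level in TPM than SLC7A3. The added 0.1 CPM limits how far a gene with a low Control level can fall, so the distances partly reflect Control level. BEX1, PKP3 and GATA5 had 0 counts in both MLL2 KO libraries, with fitted log2 changes of −9.1, −9.4 and −8.4.

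A second pattern was the median of SLC7A5, SLC7A11, SLC3A2, SLC1A4 and SLC1A5, picked with their falls in earlier results known, so that its direction follows from the choice. The closest genes outside the 10 were MAST1 (0.0585), HIP1 (0.0595) and ROBO3 (0.0663). HIP1 had 24.7 and 26.1 CPM in MLL2 KO and 19.0 and 25.2 CPM in PRMT1 KD, against 39.7 and 43.6 CPM in Control. All 6 libraries enter both measures, so the likeness describes these libraries.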

How the data were processed

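The authors deposited 1 table of raw counts per library, for 6 libraries of 293T total RNA (TRIzol extraction, TruSeq Stranded Total RNA Gold kit, per the labels' protocols). Per the file headers, featureCounts 2.0.1 counted paired reads with GENCODE 34, mapping quality of at least 10 and strand setting 2. The submitters' processing notes name FastQC 0.11.4, Trim Galore 0.6.10, STAR 2.7.5a, featureCounts 1.5.0-p1, DESeq2 1.36.0 and hg38. The 2 sources differ in the featureCounts version. Reads shared by near-identical genes score low in mapping quality, so such genes may be undercounted.

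Members and gene lists were chosen with earlier results of these data known. edgeR 4.0.16 (R 4.3.3) was run on the counts of the 3 groups in one fit: filterByExpr, TMM scaling, glmQLFit and glmQLFTest. p-values were adjusted by Benjamini and Hochberg over 17575 genes, and genes were called at an adjusted p under 0.05. The SE of a log2 change was its size divided by the square root of F. CPM used TMM-scaled library sizes. TPM used the exon length in the deposited tables and was used within libraries. With 2 libraries a group, the number of libraries, at 20061471 to 22351532 counts each, limits the precision. The genes named were the 10 members, up to 3 called genes per list and depletion with the smallest adjusted p and at least 1 CPM, the targeted genes, and the 5 or 3 genes of closest pattern (not all are printed). Of gene IDs, 60370 matched a symbol and 58482 a GENCODE 29 biotype.

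Alternatives were RLE scaling, 2 other filters, fits of 2 groups, DESeq2 1.42.0, an exon length offset, a replicate block and each library left out. On simulated counts of 17575 genes, the procedure recovered 97% of the genes changed 2-fold for MLL2 KO against Control. It recovered 80.6% for PRMT1 KD against Control and 91% for PRMT1 KD against MLL2 KO. At 1.5-fold these shares were 80.6%, 77.6% and 65.7%, in the same order.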

Additional observations from a re-analysis of the deposited data

How the results depend on the processing

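Over 13 alternative settings, 366 of the 390 log2 changes of the 10 transporters kept their direction and their side of the threshold, or lay on the same side without a call, and 0 called changes turned round. Of the rest, 13 lost the call, 7 gained one and 4, the untested SLC7A3 values, moved with the MLL2 KO library left out. For the 14 genes of other lists printed with tests, an addition made after seeing the data, 356 of 364 values stayed and 8 lost the call. These 8 were SLC38A7, CTNS and GCLM in MLL2 KO and SLC1A3 in PRMT1 KD, each with 1 library left out. Of 156 counts of called transporters and other carriers over all settings, 147 stayed within 1.5 times of the main fit and 9 moved further. The counts of called transporters stayed within 1.5 times under RLE scaling, DESeq2, other filters, fits of 2 groups and the exon length correction. These counts include SLC7A3 as a description only.

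Leaving out a library left 1 in its group, so counts of calls are given for all libraries. Without SLC7A3, 6 of the 9 transporters were lower and 1 higher in MLL2 KO against Control, where 12.1% and 10.3% of all tested genes were. In PRMT1 KD against Control 5 were lower and 1 higher, where 25.3% and 22.2% of all tested genes were. In PRMT1 KD against MLL2 KO 2 were lower and 3 higher, where 21.4% and 19.4% of all tested genes were. Of all tested genes, 22.4% were called in either direction in MLL2 KO and 47.4% in PRMT1 KD. Of the 50 other carriers, only 16 surface and 15 lysosomal or mitochondrial ones were tested. Among the tested carriers 3 were lower and 8 higher in MLL2 KO, and 11 lower and 10 higher in PRMT1 KD. When each depletion was fitted with Control alone, these became 4 and 9, and 10 and 10. In PRMT1 KD against MLL2 KO, 9 of them were lower and 9 higher. Over all genes, 2124 were lower and 1817 higher in MLL2 KO. When MLL2 KO and Control were fitted alone, 2718 were lower and 2668 higher among 16575 genes. Fewer were called without a Control or MLL2 KO library, and more without a PRMT1 KD library. The share of all genes called in MLL2 KO thus depended on which libraries were in the fit. A sample left alone in its group was assumed to vary like the others.

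The labels do not say that replicate numbers pair libraries. The correlation of the deviations of same-numbered libraries was 0.197 between MLL2 KO and PRMT1 KD, 0.0633 between MLL2 KO and Control, and 0.044 between PRMT1 KD and Control. All were weakly positive, and only that between MLL2 KO and PRMT1 KD was over 0.1. Libraries were treated as unpaired. With a replicate block, 30 of 30 transporter changes stayed on their side, with SLC7A11 at −1.17 in MLL2 KO. All-gene calls in MLL2 KO became 2373 lower and 2139 higher with the block. Exon length correction moved the median log2 change of all genes in PRMT1 KD to 0.06. The fold change of SLC7A3 in MLL2 KO rests on 7 reads, and its uncertainty is wider than the counting interval given.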
